A study of Canis lupus familiaris with 33 samples.

Results

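The genes described here were 129 of the 30951 genes counted in canine brain and canine oligodendroglioma, chosen by their measured fresh-frozen levels: abundant in control brain and far lower in tumour. A gene entered the set when its mean level was at least 10 CPM over the 6 fresh-frozen control libraries and its mean over the 6 fresh-frozen tumour libraries was at most 0.25 of that. CPM is the count of a gene divided by the total count of its library and multiplied by 1000000. Only genes of 24 chromosomes (3, 4, 7, 8, 9, 11, 14, 16, 17, 18, 19, 21, 23, 24, 25, 27, 28, 29, 30, 32, 33, 34, 37 and 38) with at least 2 annotated exons and a span under 500 kb were considered, 1 identifier being left out. These were 13081 genes, of which 4866 reached 10 CPM in fresh-frozen control brain and are called abundant genes here.

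RNA came from 33 samples of 25 dogs, collected at necropsy from 1 to 18 h after death and either frozen or fixed in formalin and embedded in paraffin (FFPE). The 6 fresh-frozen tumours were oligodendrogliomas of 3 French Bulldogs, 1 Boxer, 1 Border Terrier and 1 Pomerian, of which 5 were grade III and 1 grade II. The 6 fresh-frozen controls were brain labelled healthy from 2 French Bulldogs and 1 dog each labelled Hovawart, Mongrel, Berner sennenhund and Bolonka Swetna. Of the 21 FFPE libraries, 13 came from dogs that gave no frozen library and carry the reported test. They were 6 tumours, from 3 Boxers and 3 French Bulldogs, of which 5 were grade III and 1 grade II, and 7 healthy controls, from 4 Boxers and 3 French Bulldogs. The other 8 FFPE libraries, 5 tumours and 3 controls, came from dogs whose frozen tissue had chosen the genes. These tumours were of 3 French Bulldogs, 1 Boxer and 1 Pomerian, with 4 of grade III and 1 of grade II. Their controls were of 2 French Bulldogs and 1 Bolonka Swetna. Stated ages were 4.7 to 10 years for 3 of the 5 tumours and 2.8 to 8 years for the 3 controls. These 8 libraries are described without a test of their own, and enter only a fit of all 21 FFPE libraries, given as an alternative. Stated ages ran from 4.7 to 10 years in 5 of the 6 fresh-frozen tumours, and from 2.8 to 10.2 years in 5 of the 6 fresh-frozen controls. Among the 13 tested dogs, ages were 5.3 to 12 years for the 6 tumours and 2 to 4 years for the 2 controls with a stated age. Age and tumour cannot be told apart among those dogs. No label names the brain region of a sample. No agent or engineered allele is named for any dog.

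Oligodendroglioma is a glial tumour whose cells resemble oligodendrocytes or their precursors, and it grows within brain tissue. Healthy brain holds neurons, astrocytes, mature oligodendrocytes that form myelin, microglia and vessel cells. In a bulk sample each transcript is summed over all of these. A lower value in tumour may therefore reflect fewer cells of a type or less RNA per cell, and these measurements cannot tell the 2 apart. The deposited table lists Ensembl identifiers with no gene names, so the members are described by position, exon number and level, and no role is given for any of them. For the same reason the tissue labels could not be compared with marker genes of brain cell types, and the part of cell composition in these differences was not tested.

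In fresh-frozen tissue the 129 genes summed to 6630, 1784, 787, 8290, 10425 and 787 CPM in tumours 60127, 60461, 60631, 60636, 60679 and 60749. The same genes summed to 21528, 30000, 32275, 19399, 15819 and 27962 CPM in controls 60126, 60459, 60460, 60462, 60516 and 60629. The highest tumour thus lay below the lowest control, a separation that the choice of genes made likely. The sums averaged 4784 ± 4206 CPM in the tumours and 24497 ± 6525 CPM in the controls (SD, n = 6 each). Between 0.0787% and 1.04% of all counts of a tumour fell in these genes, against 1.58% to 3.23% in the controls. The ratio of the tumour mean to the control mean ran from 0.0473 to 0.249 with a median of 0.206. These values chose the genes and carry no test. In 80 of the 129 genes all 6 tumours were below all 6 controls, against 5.69% of the abundant genes, a contrast that the rule itself used. A further 38 genes had 5 tumours below every control, 9 had 4, 1 had 2 and 1 had 1.

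**Figure D1:**
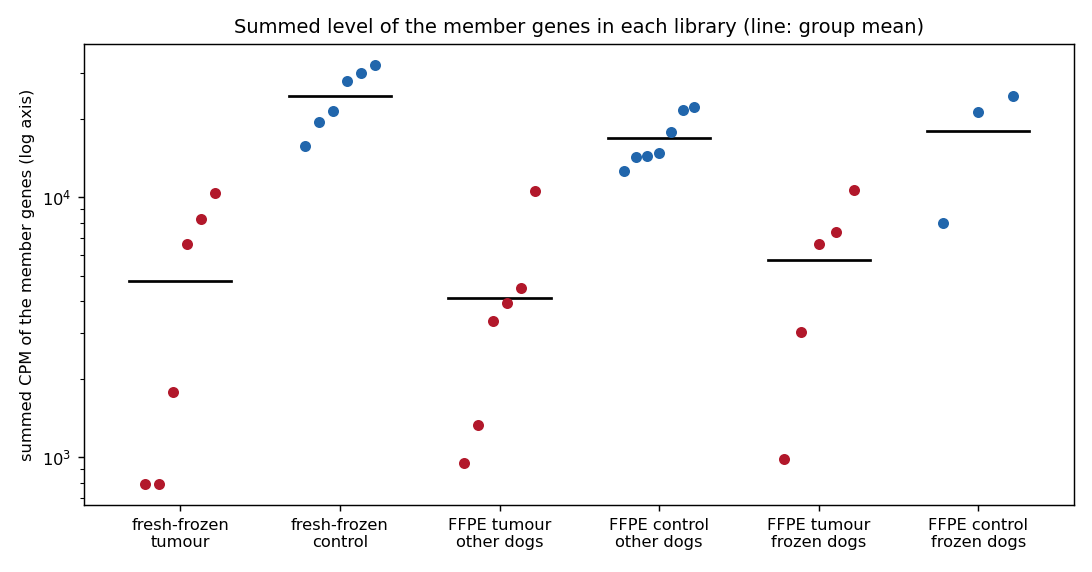
Summed level of the 129 genes (CPM, log axis) in each library, by preservation and tissue, with tumour to the left of control. Points are libraries and lines are group means. In FFPE libraries of dogs with no frozen tissue, tumours ran from 950 to 10607 CPM and controls from 12619 to 22342 CPM.

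Few of the genes had no count at all in a fresh-frozen tumour, although counts were small in the lowest tumours. In the fresh-frozen tumours at most 8 of the 129 genes had no count, in tumour 60749, and 4 had none in tumour 60631. All 129 genes had counts in the other 4 fresh-frozen tumours and in all 6 fresh-frozen controls. Tumours 60631 and 60749 had the lowest sums, and 128 and 127 of the genes were below every control in them. The median count of a member was 22 and 11 in these tumours, against 754 to 1829 in the controls. The lower members thus rest on few counts there. In tumours 60636 and 60679 (the grade II tumour), 107 and 98 were below every control, and 25 and 32 were still above 0.5 of the control mean. No share of all genes was computed for these counts per tumour, and the rule used the same values. Membership follows single tumours, as 80 genes would meet the rule without tumour 60749 and 83 without tumour 60631. Without tumour 60636 there would be 221, and without tumour 60679 there would be 219.

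The members just inside the ratio limit were a gene of chromosome 30 with 18 exons, at 60.4 CPM in tumours and 242.5 CPM in controls, and a gene of chromosome 25 with 9 exons, at 24.1 and 96.7 CPM in tumours and controls. Just outside were a gene of chromosome 3 with 15 exons, at 143 CPM in tumours and 573 CPM in controls, and a gene of chromosome 4 with 42 exons, at 2.78 and 11.04 CPM in tumours and controls. At the limit on level, members of chromosome 8 (3 exons) and chromosome 18 (25 exons) averaged 10.4 CPM each in fresh-frozen controls. Genes of chromosome 28 (12 exons) and chromosome 24 (9 exons) missed it at 9.86 and 9.91 CPM.

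Within the set the levels were uneven. Fresh-frozen control means ran from 10.4 to 3041 CPM with a median of 70.4 CPM. The highest gene held 12.4% of the summed control level, the 3 highest held 26.1% and the 10 highest held 46.7%. Per kilobase of annotated exon the control level of the members ran from 2.53 to 2762 CPM per kb with a median of 28.6, against a median of 18.9 CPM per kb over the other 4737 abundant genes. The members had a median exonic length of 2607 bp, 11 exons and a span of 53.1 kb. Medians of the other abundant genes were 2428 bp, 13 exons and 40.5 kb. These differences were not tested.

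The FFPE libraries of dogs with no frozen tissue asked whether the same genes were low in tumours of other animals. The 6 tumours summed to 3934, 10607, 950, 1327, 3342 and 4485 CPM over the 129 genes in dogs 43917, 44331, 50416, 51234, 60177 and 60792. The 7 controls summed to 14293, 17793, 12619, 22342, 21573, 14468 and 14808 CPM in dogs 36808, 43323, 45726, 47198, 50276, 50315 and 61478. No tumour overlapped a control, although tumour 44331, at 10607 CPM, lay close to control 45726, at 12619 CPM. The means were 4108 ± 3484 CPM in the tumours (SD, n = 6) and 16842 ± 3822 CPM in the controls (SD, n = 7). This separation did not rest on the most abundant genes, since without the 3 highest members the sums were 803 to 8324 CPM in the tumours and 9417 to 14365 CPM in the controls.

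Gene by gene, 128 of the 129 members passed the filter on low counts. Of these, 58 fell and 0 rose in the tumours at a Benjamini-Hochberg adjusted p under 0.05 by edgeR's quasi-likelihood test, adjusted over all 13132 genes tested. Over all genes 5.51% were lower in tumour by the same call. Over the 4860 abundant genes tested, 306 were lower and 199 higher. The median log2 fold change, tumour over control, was -1.78 over the members, with quartiles of -2.19 and -1.35 and a range from -4.16 to -0.18. Over all genes the median was 0.09. Each of the 128 estimates was below 0, against 45.3% of all genes. An unadjusted edgeR p under 0.05 was reached by 101, against 13.9% of all genes lower by that call. In the 58 that fell the adjusted p ran from 0.00379 to 0.0487. The remaining members did not pass the test. DESeq2 on the same libraries, without that filter, called 86 of the 129 members lower and 0 higher, against 4.56% of all genes lower, with a median of -1.74. That share is of 26684 genes, of which 10948 had no adjusted p and could not be called. Over the abundant genes DESeq2 called 9.23% lower. Limma voom with quality weights called 111 of 128 lower, against 13.9% of all genes. With edgeR on all 21 FFPE libraries, 97 of 128 were called lower, against 11.1% of all genes. That fit includes dogs whose frozen tissue chose the genes, so it is no independent check.

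The filter asked for 2.95 CPM in at least 6 libraries, and 74 of the 128 members would not have met it on the 6 tumours alone. Such genes entered through their control levels, so counts over the tested members alone carry that selection. With no filter all 129 members were tested, and 49 were lower and 0 higher, against 2.29% of all genes lower. All 129 estimates were below 0, against 50.1% of all genes, and the median of the members was -1.75. The member that the filter removed averaged 1.74 CPM in the FFPE tumours and 4.32 CPM in the FFPE controls, with a log2 fold change of -1.25 and an edgeR adjusted p of 0.277 in that fit.

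On the plain CPM scale the mean in FFPE tumours was below the mean in FFPE controls for all 129 members. The ratio of tumour to control was at most 0.5 for 114 of them and at most 0.25 for 48, with a lowest value of 0.0602, a median of 0.288 and a highest value of 0.909. Shares of all genes at these ratios were not computed. The edgeR log2 fold changes of the abundant genes had quartiles of -0.45 and 0.52. In 23 members all 6 tumours lay below all 7 controls, against 2.09% of the genes tested and 2.1% of the abundant genes. A further 45 had 5 of the 6 tumours below every control, 13 had 4, 19 had 3, 9 had 2, 4 had 1 and 16 had 0. For these further counts no share of other genes was computed. Control 50315 had no count for 11 members and control 45726 for 3, and no tumour can lie below a control at 0. The fresh-frozen median of 0.206 comes from the libraries in which low ratios were picked, and the difference between these medians was not tested.

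**Figure D2:**
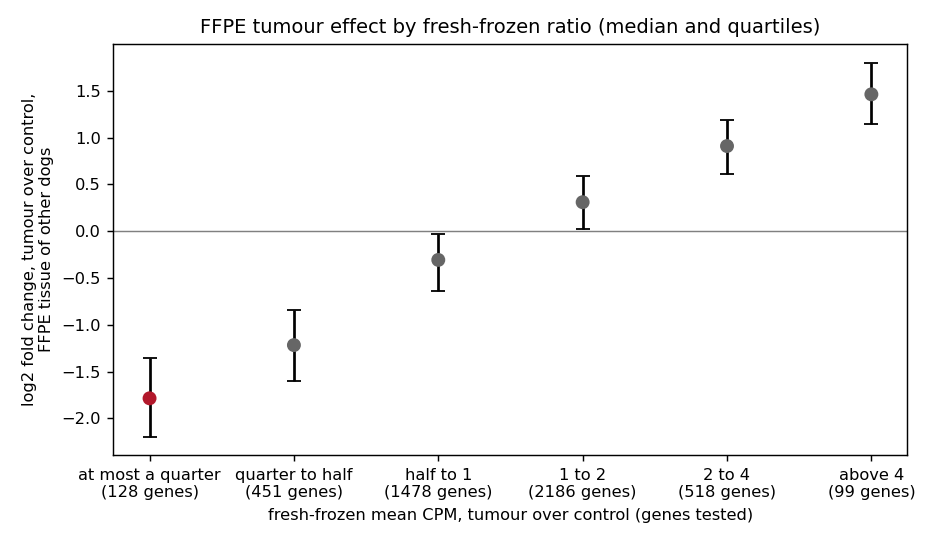
FFPE log2 fold change (tumour over control, edgeR, dogs with no frozen tissue) of the abundant genes, by their fresh-frozen ratio of tumour to control. Points are medians and bars are quartiles. The lowest bin holds the members, at a median of -1.78, and the highest bin, above 4, had a median of 1.46.

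Across the abundant genes, bins with lower fresh-frozen ratios had lower FFPE medians. For ratios above 0.25 and up to 0.5, 451 genes were tested, the median log2 fold change was -1.22, and 162 (35.9%) were lower and 0 higher. For ratios from 0.5 to 1 the median was -0.31 over 1478 genes, of which 81 were lower and 1 higher. Ratios from 1 to 2 had a median of 0.31, ratios from 2 to 4 had 0.91, and ratios above 4 had 1.46. Among the 128 tested members the fresh-frozen log2 ratio and the FFPE log2 fold change had a Pearson's r of 0.07 and a Spearman's rho of 0.11. The rule kept only ratios up to 0.25, and so narrow a range can hold a correlation near 0. All these values are a description across genes of the same libraries, and genes are not independent replicates.

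Fewer of the least abundant members passed the test, at medians close to those of the others. Of 38 members at 10 to 30 CPM in fresh-frozen control, 37 were tested and 10 fell, with a median log2 fold change of -1.78. Of 37 members at 30 to 100 CPM, 19 fell, with a median of -1.79. Of 54 members at 100 CPM or more, 29 fell, with a median of -1.80. Over all abundant genes of those levels, 2.67%, 4.61% and 15.3% were lower. The median standard error of the log2 fold change was 0.63 for members of the lowest range and 0.53 for those of both upper ranges.

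The FFPE tumours differed from each other over these genes. In tumours 50416 and 51234, 107 and 109 of the 129 members lay below every control, and 3 and 2 stayed above 0.5 of the control mean. A member with no count in a control cannot lie below every control, which limits these counts. The matching share of all genes was not computed for single tumours, so the counts per tumour describe the members alone. In tumours 43917, 60177 and 60792, 81, 87 and 80 members lay below every control. In tumour 44331 only 30 did, and 84 stayed above 0.5 of the control mean. The median log2 ratio to the control mean was -3.42 in tumour 50416, -3.30 in tumour 51234, which was the grade II tumour, and -0.56 in tumour 44331. The other 3 tumours had medians from -1.89 to -1.78. Without tumour 44331, 103 of 127 tested members were lower by edgeR (11.5% of all genes) and the median log2 fold change was -2.28. Without tumour 60177, 33 of 129 were lower (2.49% of all genes), and without control 47198 or control 50276, 38 of 125 were lower each time (2.72% and 2.55% of all genes). Without grade II tumour 51234, 42 of 129 were lower (3.01% of all genes) and the median was -1.58.

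**Figure D3:**
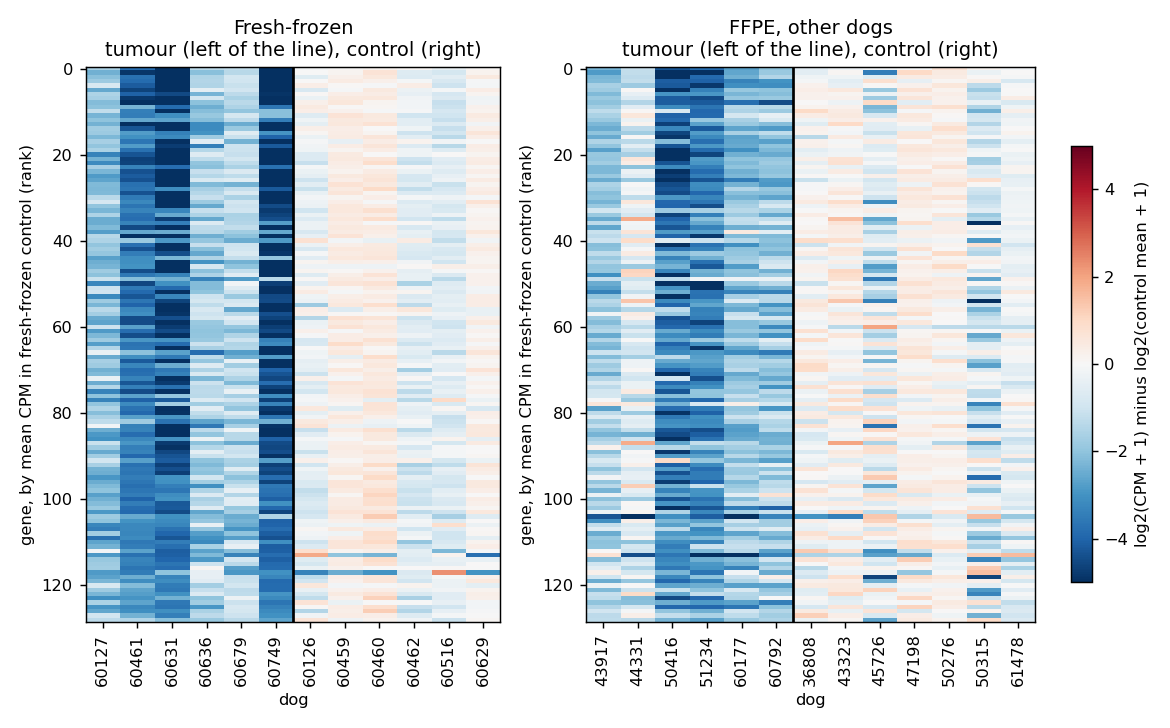
Level of each of the 129 genes in each library relative to the control mean of the same preservation (colour, log2 scale), with tumour libraries to the left of the line and controls to the right. Among the FFPE tumours of the 13 tested dogs, tumour 44331 had the highest median, at -0.56, and tumour 50416 the lowest, at -3.42.

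Depth and RNA measures moved partly with preservation. FFPE libraries of the tested dogs held 1752162 to 5704466 counts in tumours and 406406 to 4333170 in controls, and fresh-frozen libraries held 9765907 to 25168080 in tumours and 15255966 to 26726025 in controls. In the shallowest library, control 50315, 3 counts equal 7.38 CPM and 11 members had no count, so members under that level could not be measured reliably there. Mitochondrial genes took 14.1% to 31.96% of counts in FFPE tumours and 13.9% to 27.1% in FFPE controls, and 4.06% to 23.3% in fresh-frozen tumours and 9.94% to 19.8% in fresh-frozen controls. Short single-exon genes, of at most 300 bp, took 0.631% to 1.58% in fresh-frozen tumours and 0.336% to 0.722% in fresh-frozen controls, and 1.67% to 3.96% in FFPE tumours and 1.52% to 4.23% in FFPE controls. Their part in the results was not tested beyond a fit without mitochondrial genes, in which 56 members were lower (5.27% of all genes) with a median of -1.78.

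Among the members, the gene of the set with the highest fresh-frozen control level lies on the minus strand of chromosome 24 at chr24:12004117-12081329 (CanFam3.1), with 10 exons and 1101 bp of exonic sequence. It was also the highest per length, at 2762 CPM per kb in fresh-frozen controls. In FFPE tumours its lowest, median and highest levels were 91.6, 320 and 819 CPM, against 1238, 1677 and 2922 CPM in FFPE controls. All 6 tumours lay below all 7 controls. The means were 355 ± 266 CPM in tumours (SD, n = 6) and 1835 ± 535 CPM in controls (SD, n = 7), and the log2 fold change was -2.38 ± 0.47 (SE) with an edgeR adjusted p of 0.0115. In the fresh-frozen libraries that chose it, its means were 622 ± 601 CPM in tumours and 3041 ± 399 CPM in controls, and 1 tumour was as low as 15.3 CPM.

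The second by level was a gene of the plus strand at chr4:58800813-58865830, with 19 exons and 4882 bp of exonic sequence. Its FFPE levels were 19.8, 348 and 976 CPM in tumours (lowest, median and highest) and 208, 2330 and 4536 CPM in controls. The ranges overlapped because control 45726 was at 208 CPM, and 2 of the 6 tumours lay below every control. It fell by 2.50 ± 0.75 (SE) on the log2 scale with an edgeR adjusted p of 0.0455, and the adjusted p was 0.131 with no filter on low counts. The call was also lost on leaving out any 1 of 10 of the 13 libraries (controls 36808, 43323, 47198, 50276 and 50315 and tumours 43917, 50416, 51234, 60177 and 60792), at edgeR adjusted p from 0.0543 to 0.0979. The third by level lies on the minus strand at chr9:55252347-55298244, with 29 exons and 4081 bp. It had 35.9, 235 and 488 CPM in FFPE tumours and 790, 1143 and 1601 CPM in FFPE controls, with no overlap. Its log2 fold change was -2.25 ± 0.50 (SE) and its edgeR adjusted p 0.0150.

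Of the members that passed the test, the one with the lowest FFPE log2 fold change was ENSCAFG00000015138, on the plus strand at chr27:38518974-38559455, with 9 exons and 2904 bp. It had 5.08, 11.7 and 27.4 CPM in FFPE tumours (lowest, median and highest), against 21.04, 82.4 and 711 CPM in FFPE controls. Its level spread widely among the controls, with 605 CPM in control 45726 and 711 CPM in control 50315, and 4 of the 6 tumours lay below every control. The means were 14.2 ± 9.06 CPM in tumours and 236 ± 293 CPM in controls, and edgeR gave a log2 fold change of -4.16 ± 0.90 (SE) at an adjusted p of 0.0135. Without control 50315 the log2 fold change was -3.43 (edgeR adjusted p 0.0226), and limma voom gave -2.93 (adjusted p 0.0112). The call was lost with no filter on low counts, at -4.12 with an edgeR adjusted p of 0.0508. In fresh-frozen tissue it averaged 4.05 CPM in tumours and 21.6 CPM in controls. The gene overlaps 2 annotated genes of the other strand.

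Next was ENSCAFG00000011361, on the minus strand at chr32:29124996-29567481, with 50 annotated exons and 2762 bp of exonic sequence. It had 0, 0.854 and 1.71 CPM in FFPE tumours and 3.66, 9.23 and 17.2 CPM in FFPE controls, and all 6 tumours lay below all 7 controls. The tumour at 0 was dog 60792, where 3 counts equal 0.884 CPM. The log2 fold change was -3.36 ± 0.59 (SE, edgeR adjusted p 0.00982). In fresh-frozen tissue the means were 2.02 CPM in tumours and 11.6 CPM in controls. It overlaps 1 annotated gene of the same strand and 1 of the other, so its counts are less certain than those of a gene that stands alone.

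**Figure D4:**
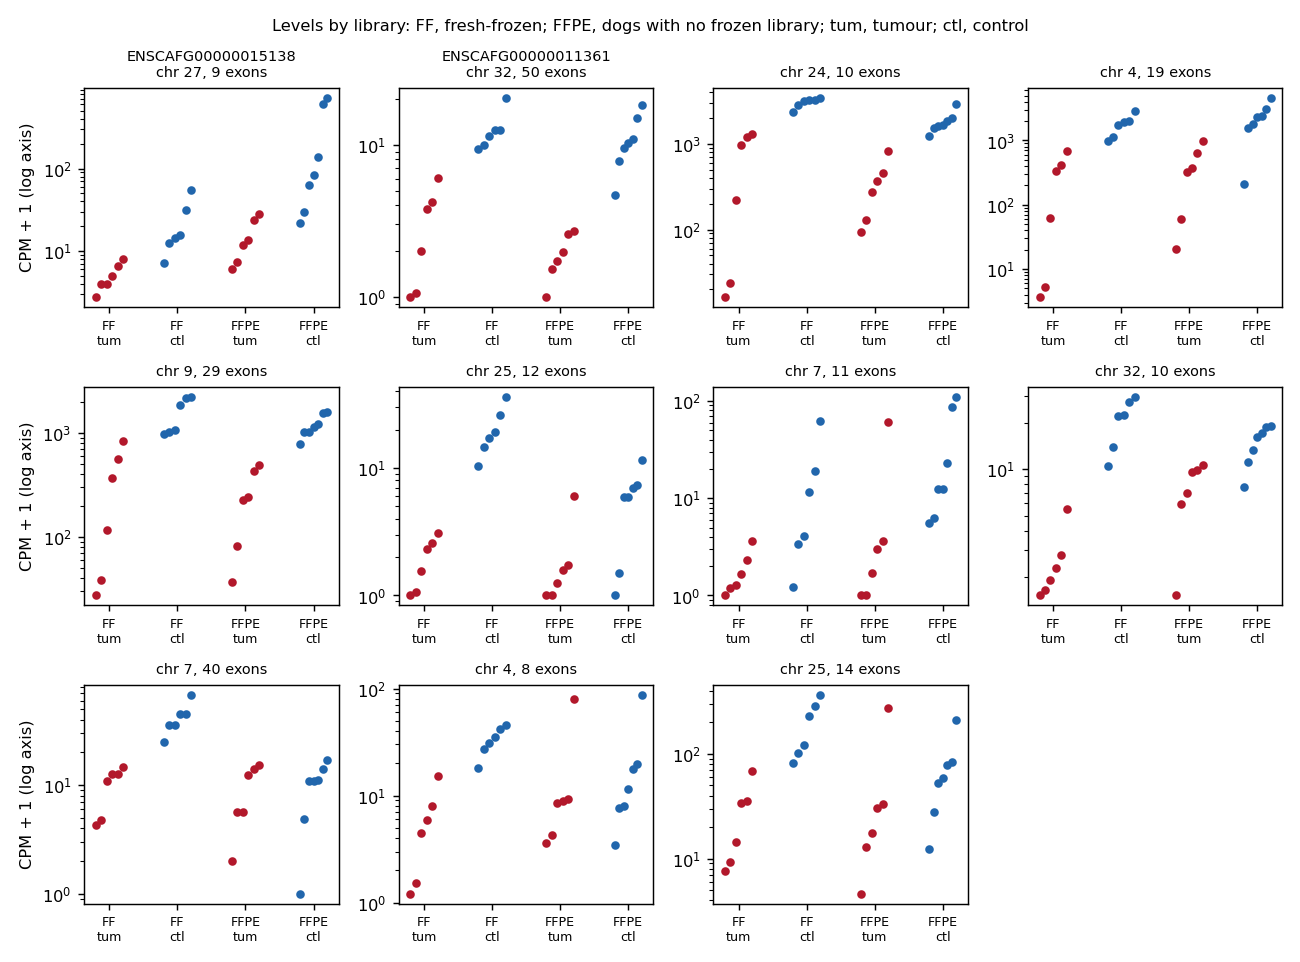
Level of the genes described by library (CPM on a log scale, after adding 1), with tumour (tum) left of control (ctl) in fresh-frozen tissue (FF) and in FFPE tissue of dogs with no frozen library. Each point is a library. The genes with the lowest frozen ratios or the highest FFPE estimates show overlapping FFPE groups.

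The 3 members with the lowest fresh-frozen ratios did not pass the FFPE test by edgeR, although limma voom called all 3 lower (adjusted p 0.0241, 0.0468 and 0.0407). The lowest, at chr25:15249622-15430044 with 12 exons, had a fresh-frozen ratio of 0.0473, from 0.928 CPM in tumours and 19.6 CPM in controls. In FFPE tissue it averaged 1.11 CPM in tumours and 4.76 CPM in controls, and edgeR gave a log2 fold change of -1.97 ± 0.85 (SE) at an adjusted p of 0.137. No tumour lay below every control, as 1 control had no count. Without tumour 44331 the log2 fold change was -3.86 and the edgeR adjusted p 0.00705, and with all 21 FFPE libraries they were -2.29 and 0.0172. The next, at chr7:19364609-19376999 with 11 exons, averaged 0.855 CPM in fresh-frozen tumours and 15.9 ± 23.1 CPM in fresh-frozen controls, where control 60126 alone reached 61.2 CPM. In FFPE tissue it averaged 10.97 ± 24.3 CPM in tumours and 35.9 ± 43.4 CPM in controls, with tumour 43917 at 60.5 CPM (log2 fold change -1.89 ± 1.18 SE, edgeR adjusted p 0.298). Without tumour 43917 the log2 fold change was -5.02 and the edgeR adjusted p 0.0229. The third, at chr32:37812903-38024489 with 10 exons, averaged 1.602 CPM in fresh-frozen tumours and 20.05 CPM in fresh-frozen controls. Its FFPE means were 6.42 ± 3.40 CPM in tumours and 13.8 ± 4.24 CPM in controls. The log2 fold change was -1.06 ± 0.47 (SE, edgeR adjusted p 0.146), against -1.52 and 0.00920 with all 21 FFPE libraries. For both genes, the fit of all 21 FFPE libraries includes dogs whose frozen tissue chose the genes and is no independent check.

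At the other end, 3 members had the FFPE estimates closest to 0. A gene of 40 exons at chr7:78671616-79006006 averaged 8.98 CPM in fresh-frozen tumours and 41.5 CPM in fresh-frozen controls. In FFPE tissue it averaged 8.18 ± 5.43 CPM in tumours and 8.999 ± 5.44 CPM in controls (log2 fold change -0.18 ± 0.53 SE, edgeR adjusted p 0.853). Here the FFPE control level of the tested dogs, rather than the tumour level, was the one that stood apart from the frozen value. The FFPE controls of the frozen dogs averaged 30.3 ± 12.2 CPM (SD, n = 3). A gene of 8 exons at chr4:37549708-37553287 averaged 18.0 ± 29.6 CPM in FFPE tumours and 21.2 ± 29.2 CPM in FFPE controls (log2 fold change -0.22 ± 0.80 SE, edgeR adjusted p 0.883). A gene of 14 exons at chr25:44474174-44547872 averaged 60.8 ± 103 CPM in FFPE tumours and 74.0 ± 65.0 CPM in FFPE controls (log2 fold change -0.24 ± 0.78 SE, edgeR adjusted p 0.864). Both of these had their highest tumour value in dog 44331, at 78.2 and 270.5 CPM, and their highest control value in dog 43323, at 86.2 and 209 CPM. Without control 43323 their log2 fold changes were 0.77 and 0.27, and without tumour 44331 they were -1.86 and -1.91, the last with an edgeR adjusted p of 0.0340. Without tumour 50416 the estimates of the members of 40 and 14 exons were 0.04 and 0.00. In fresh-frozen tissue the members of 8 and 14 exons averaged 5.05 and 27.2 CPM in tumours and 32.2 and 197 CPM in controls.

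Some members lie near each other on the genome. There were 13 runs of members at most 500 kb apart, holding 31 of the 129, and 5 of the runs had at least 3 members. The runs named here were picked after their values were seen. On chromosome 4, 3 members of 10 to 12 exons within chr4:48796852-49578092 were all 3 of the abundant genes there. Their FFPE means were 16.1 to 17.8 CPM in tumours and 73.3 to 88.0 CPM in controls, with log2 fold changes from -2.40 to -2.15, and each fell (highest edgeR adjusted p 0.0181). Their fresh-frozen means were 49.0 to 54.9 CPM in tumours and 228 to 295 CPM in controls, so the 3 genes had close levels in both materials. Exonic lengths of 1457 to 1585 bp make these levels comparable.

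On chromosome 25, both abundant genes within chr25:32463452-32498570 were members and both fell in FFPE tumours. Their FFPE means were 50.3 and 93.2 CPM in tumours and 368 and 576 CPM in controls, with log2 fold changes of -2.90 and -2.67 (highest edgeR adjusted p 0.0102). The first of these was -3.51 without tumour 44331. On chromosome 7, both abundant genes within chr7:47509852-47588857 were members of the same strand, with 147 bp between them, and both fell by 2.02 to 2.16 on the log2 scale (highest edgeR adjusted p 0.0117). A run of 3 members among 4 abundant genes at chr4:37206082-37553287 held none that fell, with log2 fold changes from -1.78 to -0.22, and 2 of its genes overlap by 103 bp on the same strand. In all, 15 members overlap another annotated gene on the same strand, 8 of them among the 58 that fell, and 27 overlap one on the other strand.

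By chromosome the share of abundant genes that were members was 2.65% in all. It was 6.41% on chromosome 4 (18 of 281), 6.63% on chromosome 25 (12 of 181) and 3.04% on chromosome 9 (16 of 526). Chromosome 19 had 0 of 85 and chromosome 29 had 0 of 100. These shares follow from the choice of genes and were not tested.

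The 2 breeds among the tested dogs gave the same direction for most members, each with few dogs. In the 3 Boxer tumours and 4 Boxer controls the median log2 fold change was -2.16. Of 127 tested members 126 were below 0, against 45.8% of all genes. At the adjusted edgeR threshold 0 members passed (0% of all genes), with 98 at an unadjusted p under 0.05 (9.2% of all genes). In the 3 French Bulldog tumours and 3 French Bulldog controls the median was -1.60, and 125 of 129 were below 0, against 47.1% of all genes. At the same threshold 0 passed (0% of all genes), with 55 at an unadjusted p under 0.05 (6.95% of all genes). The difference between breeds, tested as an interaction in edgeR, was called in 0 of 128 members, with 0 at an unadjusted p under 0.05 (1.5% of all genes), and in 0% of all 13132 genes. Limma voom with quality weights also called 0 members (0% of all genes), with 2 at an unadjusted p under 0.05 (3.72% of all genes). The median of the interaction over the members was 0.61 with edgeR and 0.17 with voom, so its size depended on the tool.

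In the FFPE libraries of the 8 dogs that also gave frozen tissue, the 129 genes summed to 7326, 10664, 3040, 6637 and 986 CPM in tumours 60127, 60461, 60636, 60679 and 60749. The 3 controls, 60126, 60460 and 60462, had 24615, 21249 and 7996 CPM. Here the groups overlapped, since tumour 60461 was above control 60462. The mean ratio of tumour to control was below 1 in 127 of the 129 members, at most 0.5 in 111 and at most 0.25 in 26, with a median of 0.369. Shares of all genes at these ratios were not computed. Control 60462 had 40.3% mitochondrial counts and 6.93% in short single-exon genes, the highest of all 33 libraries in both. It was also shallow, at 1596967 counts, against 9114673 in control 60460 and 32584840 in control 60126. The part of any of these in its low sum was not tested.

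The FFPE and frozen libraries of the same dog often gave different sums. Tumour 60461 had 10664 CPM in FFPE and 1784 CPM in frozen tissue, a ratio of 5.98, and 127 of the 129 members were higher in its FFPE library. Tumour 60636 went the other way, with 3040 CPM in FFPE and 8290 CPM in frozen tissue, and 20 members were higher in FFPE. Tumours 60127 and 60749 differed less, with ratios of FFPE to frozen of 1.10 and 1.25, and tumour 60679 had 0.637. The controls had ratios of 1.14 for dog 60126, 0.658 for dog 60460 and 0.412 for dog 60462. Over the members the median log2 difference, FFPE minus frozen, ran from -1.28 in control 60462 to 2.33 in tumour 60461. Over all abundant genes it ran from -0.68 to 0.00. In every dog the median shift of the members was larger in size than that of the abundant genes. The gap was widest in tumours 60461 (2.33 and 0.00) and 60636 (-1.20 and -0.35), followed by controls 60460 (-0.94 and -0.34) and 60462 (-1.28 and -0.68). It was smaller in tumours 60127 (0.24 and -0.16), 60679 (-0.57 and -0.41) and 60749 (0.27 and -0.10), and in control 60126 (0.17 and -0.01). Both libraries of a dog may come from different pieces of tissue, and preservation and piece cannot be told apart.

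**Figure D5:**
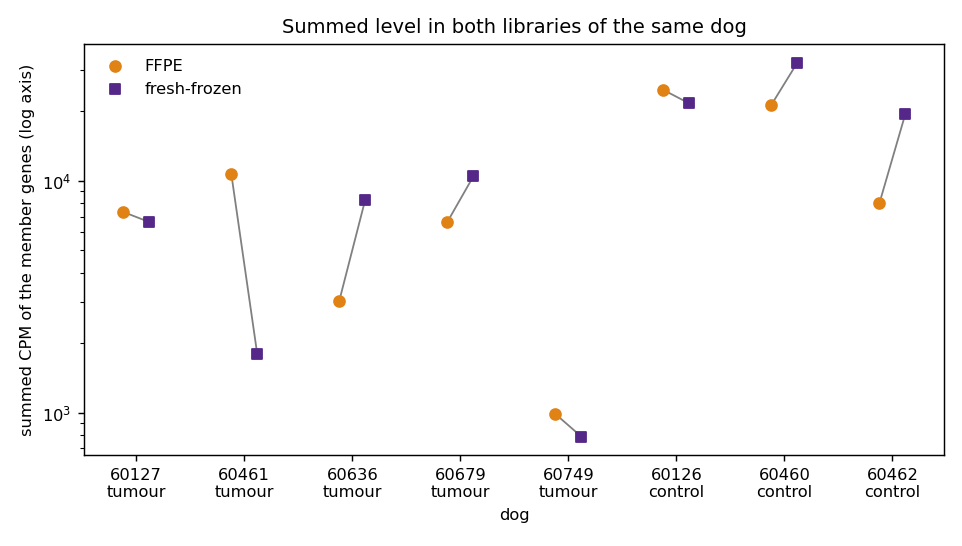
Summed level of the 129 genes (CPM, log axis) in the FFPE library (left) and the fresh-frozen library (right) of the same dog, with a line for each of the 8 dogs. Tumour 60461 had 10664 CPM in FFPE and 1784 CPM in frozen tissue, the largest ratio of the 8 dogs.

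The share of the variance of log2(CPM + 1) that lay along a single axis was compared between the members and all abundant genes within each group. It was 88.0% for the members and 50.1% for all abundant genes in fresh-frozen tumours, and 69.2% and 46.8% in fresh-frozen controls. In FFPE tissue of the tested dogs it was 75.4% for the members and 54.4% for all abundant genes among tumours, and 59.0% and 62.3% among controls. In FFPE tissue of the frozen dogs it was 90.4% for the members and 62.1% for all abundant genes among the 5 tumours, and 85.2% and 72.4% among the 3 controls. The members thus had the larger share in 5 of the 6 groups, controls included. The median SD of log2(CPM + 1) was larger for the members than for all abundant genes in each of the 6 groups, for example 1.27 and 0.63 across FFPE tumours of the tested dogs, 0.69 and 0.59 across their FFPE controls, and 0.58 and 0.37 across fresh-frozen controls. These are descriptions of the libraries, and the fresh-frozen values come from the samples that chose the genes.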

How the data were processed

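The deposited table holds unnormalised whole-number counts of fragments for each gene. The authors obtained the counts with featureCounts 1.6.0 over exons of Ensembl release 100 models of CanFam3.1, with strand option 1, a minimum mapping quality of 10 and no chimeric fragments, per the file headers. The submitters' processing notes name fastp and STAR without a version. It is not stated whether reads were collapsed by molecular identifier, so counts may hold amplified copies. The table had 0 columns of other series. Genes sharing reads with a near-identical copy may be undercounted.

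CPM was computed from each column total. Counts of the 13 FFPE libraries of dogs with no frozen tissue were fitted by edgeR 4.0.16 in R 4.3.3, with low counts removed by filterByExpr, scaling by TMM and a robust quasi-likelihood F test. P-values were adjusted by Benjamini-Hochberg over all genes, at 0.05. Alternatives used limma 3.58.1 (voom with quality weights) and DESeq2 1.42.0, other scalings and filters, single breeds, all 21 FFPE libraries and each library left out. Dogs are separate animals, and within each group all pairs of libraries differed beyond counting noise (chi-square per degree of freedom at least 19.0). Python 3.11.15 was used for the rest.

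The members and lists were chosen with earlier results of these data known. Identifiers were printed for at most 2 members, those with the lowest log2 fold change among members past the threshold at an average log2 CPM of at least 2. Also described were the 3 members with the highest fresh-frozen control level, the 3 with the lowest fresh-frozen ratio and the 3 with the highest FFPE estimate. The RefSeq table at hand named 0 of the identifiers, so planned marker and pathway lists were not used. On data simulated for the FFPE comparison over 12852 genes, 2.13% of genes changed 2-fold and 67.4% of genes changed 4-fold were recovered. These shares cover the 94 and 95 changed genes that passed the filter. Each gene was drawn independently, so the shares do not describe genes that vary together across libraries, as the members did. No Wilson interval is printed, because it would cover counting error alone.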

Additional observations from a re-analysis of the deposited data

Results flagged for a closer look

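In 12 of 60 groups of values examined, the highest library lay far from the rest of its group by Dixon's criterion, where chance flags about 1 in 20 groups. The values of described members share libraries, so these 60 are not independent. On the log2 scale 5 of the 12 were past the limit and 7 were not. The sum over the 129 members was 10607 CPM in FFPE tumour 44331, with the nearest of the other 5 tumours at 4485 CPM. The gap was 0.634 of the range, just above the limit for 6 samples, and on the log2 scale it was 0.357, below that limit.

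Tumour 44331 was also above the other FFPE tumours for 3 described members. It had 5.08 CPM for the member of chromosome 25 with 12 exons (nearest 0.720), 78.2 CPM for the member of chromosome 4 with 8 exons (nearest 8.34), and 270.5 CPM for the member of chromosome 25 with 14 exons (nearest 32.2). The first and second of these were past the limit on the log2 scale too, and the third was not, at 0.516. FFPE control 43323 stood apart for the same member of chromosome 4, at 86.2 CPM (nearest 18.7), and for the member of chromosome 25 with 14 exons, at 209 CPM (nearest 82.4), neither past the limit on the log2 scale.

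The member of chromosome 7 with 11 exons reached 60.5 CPM in FFPE tumour 43917 (nearest 2.65), 9.84 CPM in FFPE tumour 60127 (nearest 1.34) and 61.2 CPM in fresh-frozen control 60126 (nearest 17.9), and only the last was not past the limit on the log2 scale. ENSCAFG00000011361 reached 6.48 CPM in FFPE tumour 60127 (nearest 1.79) and 19.2 CPM in fresh-frozen control 60126 (nearest 11.4), and on the log2 scale the second alone was past it. The member of chromosome 32 with 10 exons reached 4.53 CPM in fresh-frozen tumour 60636 (nearest 1.76), not past it on the log2 scale.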

How the results depend on the processing

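The number of members lower in FFPE tumours was 58 in the reported fit. It was 111 with limma voom (13.9% of all genes lower, against 5.51% in the reported fit), and 0 in Boxers only and 0 in French Bulldogs only (98 and 55 at an unadjusted p under 0.05). It was 97 with all 21 FFPE libraries (11.1%), which include dogs whose frozen tissue chose the genes. It ran from 33 to 103 with each library left out in turn, and 0 members were higher in any of these fits. DESeq2 gave 86, with 1 member without an adjusted p, and the count stayed within 1.5 times of 58 under other scalings and filters. The median log2 fold change ran from -2.28 to -1.58. ENSCAFG00000015138 lost its call with no filter (-4.12, edgeR adjusted p 0.0508), in Boxers only (-3.54, 0.130) and in French Bulldogs only (-4.93, 0.189). ENSCAFG00000011361 lost it in Boxers only (-3.62, 0.121) and in French Bulldogs only (-3.08, 0.189). Those subsets have fewer samples. The rule gave 129 members, 261 with a ratio limit of 1 in 3, 58 with 1 in 5 and 269 with group medians, of which 120 were among the 129, and 80 to 221 with each fresh-frozen library left out. The cause of these shifts was not tested. No paired analysis was possible because each of the 13 tested dogs gave 1 library of 1 tissue, so tumours and controls share no dog. Depth limits low members most, as 3 counts equal 7.38 CPM in FFPE control 50315.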
